A study of Mus musculus with 7 samples.

Results

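Immediate early genes are the transcripts that a neuron makes first after a burst of activity, from transcription factors already present in the nucleus. The set described here holds 37 of them, chosen by name, out of 18193 mouse genes with a value on the arrays. All 37 were measured, by 71 probe sets in all (1 to 6 per gene, and 1 for 19 of the genes), and the brightest probe set by its mean over all arrays stands for its gene. Expression was measured in whole hypothalami of mice aged 3 months on 7 Affymetrix mouse430_2 arrays, 4 from wild-type mice and 3 from Creb-PomcCre-/- mice, in which a Cre recombinase driven from Pomc removes Creb. The study was made to find genes downstream of CREB in the neurons of the arcuate nucleus that regulate feeding. The labels call the samples biological replicates. They do not say whether a sample is 1 mouse or a pool, nor which floxed or Cre alleles the wild-type mice carry.

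Calcium entering through NMDA receptors and L-type channels activates kinases that phosphorylate CREB and the partners of SRF, and these factors, which sit at the promoters of immediate early genes, start transcription within minutes. Many of the products are transcription factors themselves (FOS and JUN proteins, EGR zinc fingers, NR4A receptors, NPAS4), others act at synapses (ARC, HOMER1) or shut the signal down again (DUSP phosphatases). Their transcripts are short-lived, and in the hypothalamus they are widely used as a record of recent neuronal activity, feeding state, stress and handling. Pomc neurons are a small share of hypothalamic cells, so a value of the whole hypothalamus comes mostly from cells in which Pomc-driven Cre is not active, although such a Cre is also known to act during development in precursors of other arcuate neurons. In such bulk RNA, fewer cells of a type and less RNA per cell cannot be told apart.

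Read by its brightest probe set, none of the 37 genes differed between the genotypes beyond the spread between arrays. In none of these probe sets did the knockout values lie apart from the wild-type values. Within a single genotype, however, 14 of the 37 differed by more than 2-fold between arrays, and 4 of these (Fos, Junb, Nr4a1 and Npas4) by more than 3-fold. Among the 14 were the dim Egr2, too low for a fold to be given, and Gem, with its low wild-type array 2. Over the arrays of both genotypes together, the range exceeded 2-fold in 16 of the 37 and in 2.20% of all genes. Fos, the most variable member, ranged over 4.84-fold between its lowest and highest array. Part of the set moved together from array to array. An activity core of 13 genes was listed with earlier results of these data known. Of these, 11 were lowest among the wild types in array 2, while Fosb and Egr3 were lowest in array 1. Among the knockouts 12 were lowest in array 2, while Ier2 was lowest in array 3. The sections of values follow the roles of the proteins, after a description of matches to the CREB site in promoters of their genes.

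CREB binds the cyclic AMP response element (CRE), the palindrome TGACGTCA, and also its shorter core, TGACG or, read on the other strand, CGTCA. Promoter stretches from 250 bases before to 50 bases after the start of transcription were given by RefSeq, build GRCm38.p6, for 30 of the 37 members. The core, counted on both strands and also inside the full palindrome, was present in 20 of these 30 members (66.7%) and in 6228 of 27025 genes with an entry (23%). The full palindrome was found in 3 of 30, namely Btg2, Dusp1 and Maff (10%, against 2.03% of all genes). The CArG box, to which SRF binds, was found on either strand in 3 of 30, namely Dusp5, Egr2 and Zfp36 (10%, against 1.81%). The AP-1 site (TGAGTCA or TGACTCA) was present in Csrnp1 only (3.33%, against 5.95%), and TATAAA, on either strand, in 5 members (16.7%, against 15.7%). These are matches of letters, a description of the windows and not of binding.

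The 250 bases before the start are shown for 8 members with a CRE core whose expression is described below. Their cores match the letters of the site of the deleted factor, and binding to them was not tested. Each is written 5′ to 3′ along the gene's own strand, ends at the base before the start of transcription, and has CRE cores and the full CRE in capitals.
Fos, chr12:85473640-85473889, plus strand: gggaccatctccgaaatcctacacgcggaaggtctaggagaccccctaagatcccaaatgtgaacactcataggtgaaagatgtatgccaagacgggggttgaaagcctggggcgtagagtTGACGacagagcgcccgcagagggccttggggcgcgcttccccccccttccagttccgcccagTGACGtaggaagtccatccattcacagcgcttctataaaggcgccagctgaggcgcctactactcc
Junb, chr8:84978749-84978998, minus strand: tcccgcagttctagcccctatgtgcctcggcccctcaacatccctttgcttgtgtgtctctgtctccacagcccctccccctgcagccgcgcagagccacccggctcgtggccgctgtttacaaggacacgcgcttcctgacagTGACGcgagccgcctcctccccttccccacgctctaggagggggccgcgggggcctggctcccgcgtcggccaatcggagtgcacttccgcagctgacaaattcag
Nr4a1, chr15:101266596-101266845, plus strand: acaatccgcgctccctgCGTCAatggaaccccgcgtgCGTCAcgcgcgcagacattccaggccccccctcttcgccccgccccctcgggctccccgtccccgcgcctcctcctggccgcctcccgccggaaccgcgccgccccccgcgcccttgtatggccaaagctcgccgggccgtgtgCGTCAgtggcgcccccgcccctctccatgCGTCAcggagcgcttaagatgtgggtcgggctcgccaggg
Npas4, chr19:4989972-4990221, minus strand: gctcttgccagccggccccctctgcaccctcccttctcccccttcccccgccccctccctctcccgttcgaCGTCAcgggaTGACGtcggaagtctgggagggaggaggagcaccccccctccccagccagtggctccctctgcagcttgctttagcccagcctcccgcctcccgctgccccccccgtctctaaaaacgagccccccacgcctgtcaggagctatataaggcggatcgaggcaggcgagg
Dusp1, chr17:26508473-26508722, minus strand: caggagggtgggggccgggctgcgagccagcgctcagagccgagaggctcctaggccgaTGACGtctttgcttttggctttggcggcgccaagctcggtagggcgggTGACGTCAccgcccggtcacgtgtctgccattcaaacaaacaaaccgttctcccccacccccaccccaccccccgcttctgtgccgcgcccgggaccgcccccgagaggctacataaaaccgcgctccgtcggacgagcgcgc
Btg2, chr1:134079156-134079405, minus strand: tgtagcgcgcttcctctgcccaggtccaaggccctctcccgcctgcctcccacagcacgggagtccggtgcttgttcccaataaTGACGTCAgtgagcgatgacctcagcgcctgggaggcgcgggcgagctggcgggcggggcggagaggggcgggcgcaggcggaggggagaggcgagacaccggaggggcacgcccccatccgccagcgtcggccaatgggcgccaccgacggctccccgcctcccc
Fosb, chr7:19310046-19310295, minus strand: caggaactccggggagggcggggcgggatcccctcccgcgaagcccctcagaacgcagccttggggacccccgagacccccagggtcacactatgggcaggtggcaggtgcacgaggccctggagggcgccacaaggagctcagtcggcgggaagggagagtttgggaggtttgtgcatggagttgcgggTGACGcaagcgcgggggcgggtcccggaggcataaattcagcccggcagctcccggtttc
Nr4a3, chr4:48045055-48045304, plus strand: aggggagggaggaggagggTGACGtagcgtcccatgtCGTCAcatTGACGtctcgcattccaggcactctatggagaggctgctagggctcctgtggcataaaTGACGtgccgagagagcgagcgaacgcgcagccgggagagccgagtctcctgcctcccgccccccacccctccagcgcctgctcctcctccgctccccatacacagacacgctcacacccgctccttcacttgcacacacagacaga
The Fos stretch has 2 cores, of which that nearest the start lies 66 to 62 bases before it. Nr4a1 and Nr4a3 have 4 cores each, the most among the 8. In Npas4 both cores lie 179 to 165 bases before the start and are separated by a short spacer. In Dusp1 the full palindrome lies 143 to 136 bases before the start, and in Btg2 it lies 166 to 159 bases before it. Junb and Fosb have a single core each.

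The arrays that these members are read from agreed closely over all probe sets, with correlations between 0.994 and 0.997 and array medians between 6.19 and 6.24 on the log2 scale. Of 14 measured hypothalamic marker genes, 12 lay above the median of all genes. The ratio of the 3′ to the 5′ probe set of Gapdh, a sign of RNA integrity, ran from 0.0010 to 0.055 as a log2 difference, and that of actin from 1.34 to 1.47. Xist and a Y-linked transcript marked wild-type arrays 1 and 4 and knockout array 1 as female and the other 4 as male. Creb1 itself read 9.44, 9.57, 9.40 and 9.56 in wild type and 9.42, 9.46 and 9.47 in the knockout, differing by -0.04 ± 0.052 (SE), short of the threshold (limma, Benjamini-Hochberg adjusted p = 0.787). The whole-tissue value of the targeted gene thus does not check the labels. Values of all genes are log2 expression, a step of 1 being a doubling, and every difference is knockout minus wild type.

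FOS and JUN proteins pair to form AP-1, the factor that carries a brief signal into a second wave of transcription. Fos read 10.11, 9.08, 11.36 and 11.03 in wild-type arrays 1 to 4 and 11.21, 9.54 and 10.98 in knockout arrays 1 to 3. Array 2 was the lowest in both genotypes and the groups overlapped almost fully. The means were 10.39 ± 1.02 (SD, n = 4) and 10.58 ± 0.90 (SD, n = 3), a difference of 0.18 ± 0.56 (SE) with a 95% interval from -1.10 to 1.46 (limma, Benjamini-Hochberg adjusted p = 0.924). That interval is wide enough to hold a doubling in either direction.

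Fosb, whose stable splice form accumulates with repeated activation, read 5.57, 5.87, 6.91 and 6.69 in wild type and 6.57, 6.39 and 7.14 in the knockout. Wild-type arrays 1 and 2 were low and the other 5 arrays shared one range. The difference was 0.44 ± 0.33 (SE), with a 95% interval from -0.30 to 1.18 (limma, adjusted p = 0.613). Junb, which forms AP-1 dimers with FOS, read 7.07, 6.14, 7.87 and 7.13 in wild type and 7.85, 6.70 and 6.76 in the knockout. Wild-type array 3 and knockout array 1 stood at nearly the same high level, and array 2 was again the lowest of each genotype. The Junb difference was 0.053 ± 0.40 (SE; limma, adjusted p = 0.971), within a 3.33-fold range over the arrays.

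The other AP-1 members moved less or were dim. Fosl2, a late-acting FOS relative, read 7.44, 7.30, 8.37 and 8.45 in wild type and 7.67, 7.92 and 8.36 in the knockout, so that wild-type arrays 3 and 4 and knockout array 3 were the high ones. Its other probe set stayed between 6.13 and 6.50. Jun ranged over 1.41-fold and Jund, which is made constantly in most cells, over 1.17-fold, with differences of -0.08 and 0.0050. Fosl1, at a mean of 4.58, and Atf3, at 5.06, a stress-induced partner of JUN, differed by 0.0054 and 0.02. These levels may be near background, which the arrays do not mark. Maff, a small MAF protein without an activating domain, read 5.91, 5.80, 6.43 and 6.24 in wild type and 6.06, 6.21 and 6.72 in the knockout. The Maff groups overlapped and the difference was 0.23 ± 0.19 (SE; limma, adjusted p = 0.648). Of the 9 AP-1 genes 8 were higher in the knockout and 1 was lower, none past the threshold, with a median difference of 0.05.

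**Figure D1:**
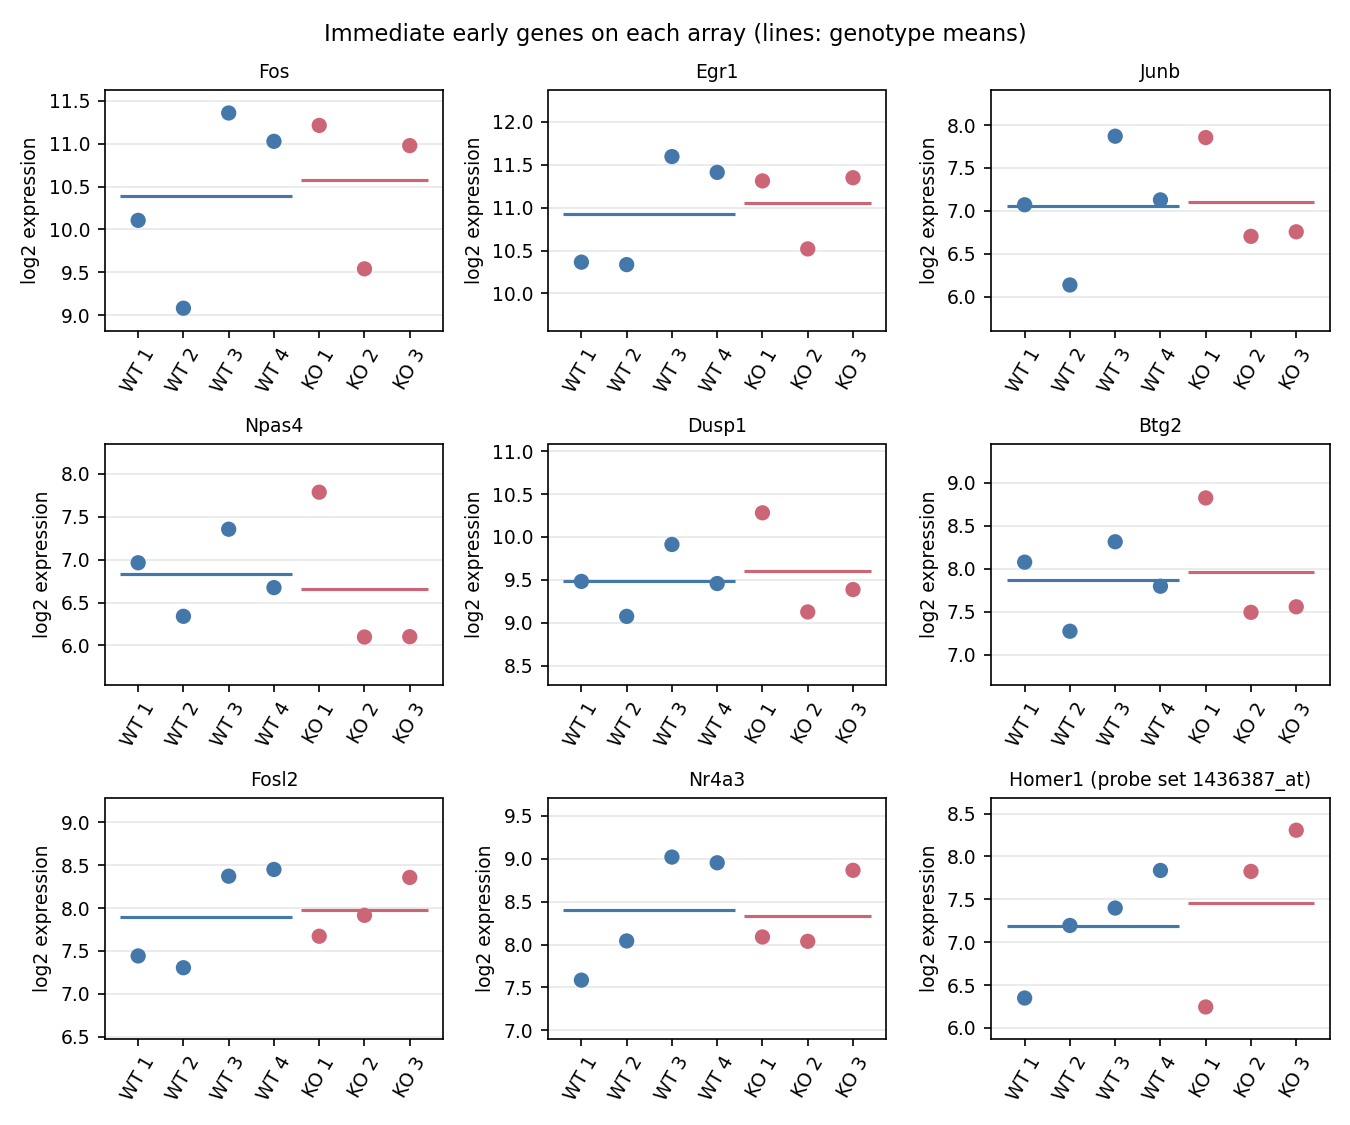
Log2 expression (vertical axes) of 8 immediate early genes and of the most variable Homer1 probe set on each of the 4 wild-type (WT, blue) and 3 knockout (KO, red) arrays along the horizontal axes, with a line at the mean of each genotype. The genotype means lie close together in every panel, while Fos runs from 9.08 to 11.36 within wild type alone.

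EGR proteins are zinc-finger factors, and Egr1 mRNA is among the most used markers of neuronal activation. Egr1 read 10.36, 10.34, 11.60 and 11.41 in wild type and 11.31, 10.52 and 11.35 in the knockout. The values fell into a low range of 10.34 to 10.52 and a high range of 11.31 to 11.60, each with arrays of both genotypes. The difference was 0.13 ± 0.35 (SE), with a 95% interval from -0.65 to 0.92 (limma, adjusted p = 0.907). Egr3 read 6.36, 6.99, 7.92 and 7.37 in wild type and 7.09, 6.89 and 8.001 in the knockout. Here array 3 was highest in both genotypes, and the difference was 0.16 ± 0.37 (SE; limma, adjusted p = 0.889). A second Egr3 probe set stayed between 5.90 and 6.16 and did not follow this pattern.

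Egr2 was dim, at 4.37, 3.85, 5.42 and 4.56 in wild type and 4.83, 4.07 and 4.15 in the knockout. Wild-type array 3 was the highest and wild-type array 2 the lowest, and its second probe set had the same arrays at 5.29 and 3.49. These levels are low enough that no fold is given between them. The difference was -0.19 ± 0.33 (SE; limma, adjusted p = 0.847). Egr4 read 6.29, 6.11, 6.41 and 6.47 in wild type and 6.48, 5.87 and 6.38 in the knockout, with array 2 the lowest of both genotypes and a difference of -0.08 ± 0.15 (SE; limma, adjusted p = 0.871). Of the 4 EGR genes 2 were higher and 2 lower, none past the threshold.

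The NR4A genes encode orphan nuclear receptors that act without a hormone and are controlled by how much is made. Nr4a1 read 8.52, 7.98, 9.57 and 8.71 in wild type and 9.35, 8.02 and 8.35 in the knockout. Its high arrays were wild-type array 3 and knockout array 1, as for Junb, and its difference was -0.12 ± 0.39 (SE; limma, adjusted p = 0.927). Nr4a3 read 7.59, 8.04, 9.02 and 8.95 in wild type and 8.09, 8.04 and 8.87 in the knockout. Its high arrays were wild-type arrays 3 and 4 and knockout array 3, as for Fosl2, and its difference was -0.07 ± 0.36 (SE; limma, adjusted p = 0.955). The 2 other Nr4a3 probe sets were dim, with means of 3.47 and 5.79, and did not show this range. Nr4a2, which dopamine neurons need, ranged over 1.74-fold and differed by 0.08 ± 0.17 (SE; limma, adjusted p = 0.883). This was the smallest difference among its 6 probe sets. The others were higher in the knockout by 0.16 to 0.21, none past the threshold (limma over all probe sets, lowest unadjusted p = 0.0725, adjusted p = 0.51).

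Npas4 responds to calcium entry in neurons more selectively than Fos does. It read 6.96, 6.34, 7.36 and 6.67 in wild type and 7.79, 6.10 and 6.10 in the knockout. Knockout array 1 stood above all other arrays while the other knockout arrays were the lowest of the 7, and the difference was -0.17 ± 0.41 (SE), with a 95% interval from -1.10 to 0.76 (limma, adjusted p = 0.898). Ier2, a nuclear protein induced by growth factors, read 6.74, 6.69, 6.86 and 6.73 in wild type and 7.27, 6.52 and 6.26 in the knockout. The wild-type Ier2 values spanned 1.12-fold and the knockout values 2.02-fold, with knockout array 1 the highest of all and a difference of -0.07 ± 0.20 (SE; limma, adjusted p = 0.917).

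Of the KLF zinc-finger factors, Klf4 read 7.67, 7.41, 8.35 and 7.86 in wild type and 7.74, 7.34 and 7.55 in the knockout. Only wild-type arrays 3 and 4 lay above the highest knockout array, and the difference was -0.28 ± 0.20 (SE; limma, adjusted p = 0.601), the lowest of the 37. Klf2, which endothelial cells also make, ranged over 2.17-fold with a difference of 0.0018. Klf6, Csrnp1 and Ier5 ranged over 1.29-fold, 1.37-fold and 1.19-fold. Of these 7 nuclear factors 2 were higher and 5 lower, none past the threshold.

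Arc protein acts at synapses, where it promotes the removal of AMPA receptors. Arc read 7.14, 6.82, 7.49 and 7.17 in wild type and 7.54, 6.89 and 6.98 in the knockout. It was highest in wild-type array 3 and knockout array 1, over a range of 1.64-fold, and its difference was -0.02 ± 0.18 (SE), with a 95% interval from -0.43 to 0.40 (limma, adjusted p = 0.981). Gem, a small GTPase that inhibits calcium channels, had the largest difference of all members. It read 6.20, 4.67, 5.97 and 5.59 in wild type and 5.92, 6.19 and 6.54 in the knockout. Wild-type array 2 stood far below the rest, at a level that may be near background, and Gem has a single probe set. Wild-type array 1 lay inside the knockout range. The difference was 0.61 ± 0.33 (SE), with a 95% interval from -0.13 to 1.349 (limma, unadjusted p = 0.0957, adjusted p = 0.492).

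Rgs2, which speeds the switching-off of G proteins, varied little between arrays, over a range of 1.17-fold. Its values were 11.20, 11.18, 11.36 and 11.37 in wild type and 11.22, 11.41 and 11.40 in the knockout, a difference of 0.07 ± 0.066 (SE; limma, adjusted p = 0.713). Its interval, from -0.083 to 0.22, leaves room only for small shifts of the whole tissue. Ptgs2, which encodes the inducible cyclooxygenase, was dim at a mean of 4.16 and differed by 0.05.

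Homer1 shows how much the choice of probe set can matter. Its brightest probe set, which stands for the gene, read 9.37 to 9.67 over the arrays and differed by 0.02. The most variable of its 6 probe sets, singled out after its values were seen, read 6.35, 7.19, 7.40 and 7.84 in wild type and 6.25, 7.83 and 8.31 in the knockout. Array 1 was the lowest of both genotypes there, and the difference was 0.26 ± 0.48 (SE; limma over all probe sets, adjusted p = 0.871). Homer1 makes a long constitutive form and a short activity-induced form, and the sources used here do not say which form this probe set reads.

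Feedback regulators end the signal that induced them. Dusp1, a phosphatase that inactivates MAP kinases in the nucleus, read 9.48, 9.07, 9.91 and 9.46 in wild type and 10.28, 9.13 and 9.39 in the knockout. Knockout array 1 was the highest of the 7 and array 2 the lowest of each genotype, with a difference of 0.12 ± 0.27 (SE; limma, adjusted p = 0.894). Dusp6, which acts on ERK in the cytoplasm, read 8.56, 8.94, 8.98 and 8.94 in wild type and 8.73, 8.52 and 8.81 in the knockout. Apart from the low wild-type array 1, the wild-type values of Dusp6 lay above all knockout values, and the difference was -0.16 ± 0.11 (SE; limma, adjusted p = 0.579). Without wild-type array 1 its adjusted p was 0.227, the lowest of any member under any alternative tried. Dusp5 ranged over 1.25-fold, Trib1 over 1.37-fold and Ier3 over 1.10-fold, the narrowest of the 37.

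The last group acts on mRNA decay and on cell growth. Btg2, which recruits the deadenylation machinery and slows division, read 8.08, 7.27, 8.31 and 7.80 in wild type and 8.83, 7.49 and 7.56 in the knockout. Its highest array was knockout array 1, a second probe set had the same array at 8.71, and the difference was 0.09 ± 0.34 (SE; limma, adjusted p = 0.934). Zfp36, which binds AU-rich elements of short-lived mRNAs, read 6.62, 6.57, 7.03 and 6.80 in wild type and 6.27, 6.45 and 6.84 in the knockout. Knockout arrays 1 and 2 were the lowest of all arrays while knockout array 3 exceeded 3 of the 4 wild-type arrays, and the difference was -0.24 ± 0.15 (SE; limma, adjusted p = 0.564). Gadd45b, a stress sensor linked to DNA demethylation, read 7.37, 7.08, 7.38 and 7.39 in wild type and 7.63, 7.26 and 7.35 in the knockout. Wild-type array 2 was low there, 3 wild-type arrays were nearly equal, and the difference was 0.11 ± 0.11 (SE; limma, adjusted p = 0.721). Gadd45g ranged over 1.80-fold with a difference of 0.06.

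Over the whole set, 0 of 37 members passed the threshold of 0.05 on the adjusted p (limma), in a comparison in which 0.011% of 18193 genes (2 genes) did. At an unadjusted p under 0.05 the count was again 0 of 37, against 11.7% of all genes, and in 0 of 37 did the groups not overlap, against 12.1%. These counts are of the brightest probe sets. The groups did not overlap in a dimmer probe set each of Trib1, Homer1 and Rgs2, with means of 4.80, 3.20 and 5.26. Their differences were 0.20, 0.15 and 0.20 (limma over all probe sets, unadjusted p = 0.0215, 0.0469 and 0.0533, adjusted p = 0.403, 0.468 and 0.478). In all other probe sets of the members the groups overlapped. Members higher in the knockout numbered 23 and those lower 14, where 51.5% of all genes were higher. The differences ran from -0.28 (Klf4) to 0.61 (Gem), with a median of 0.02 beside 0.0036 over all genes. The precision was poorer than for most genes: the median SE of a difference was 0.18 over the members and 0.073 over all genes. For 31 of the 37 the 95% interval stayed within a 2-fold change in either direction, and for 21 within 1.5-fold. For the remaining 6 a 2-fold change in the whole tissue lies within the interval.

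**Figure D2:**
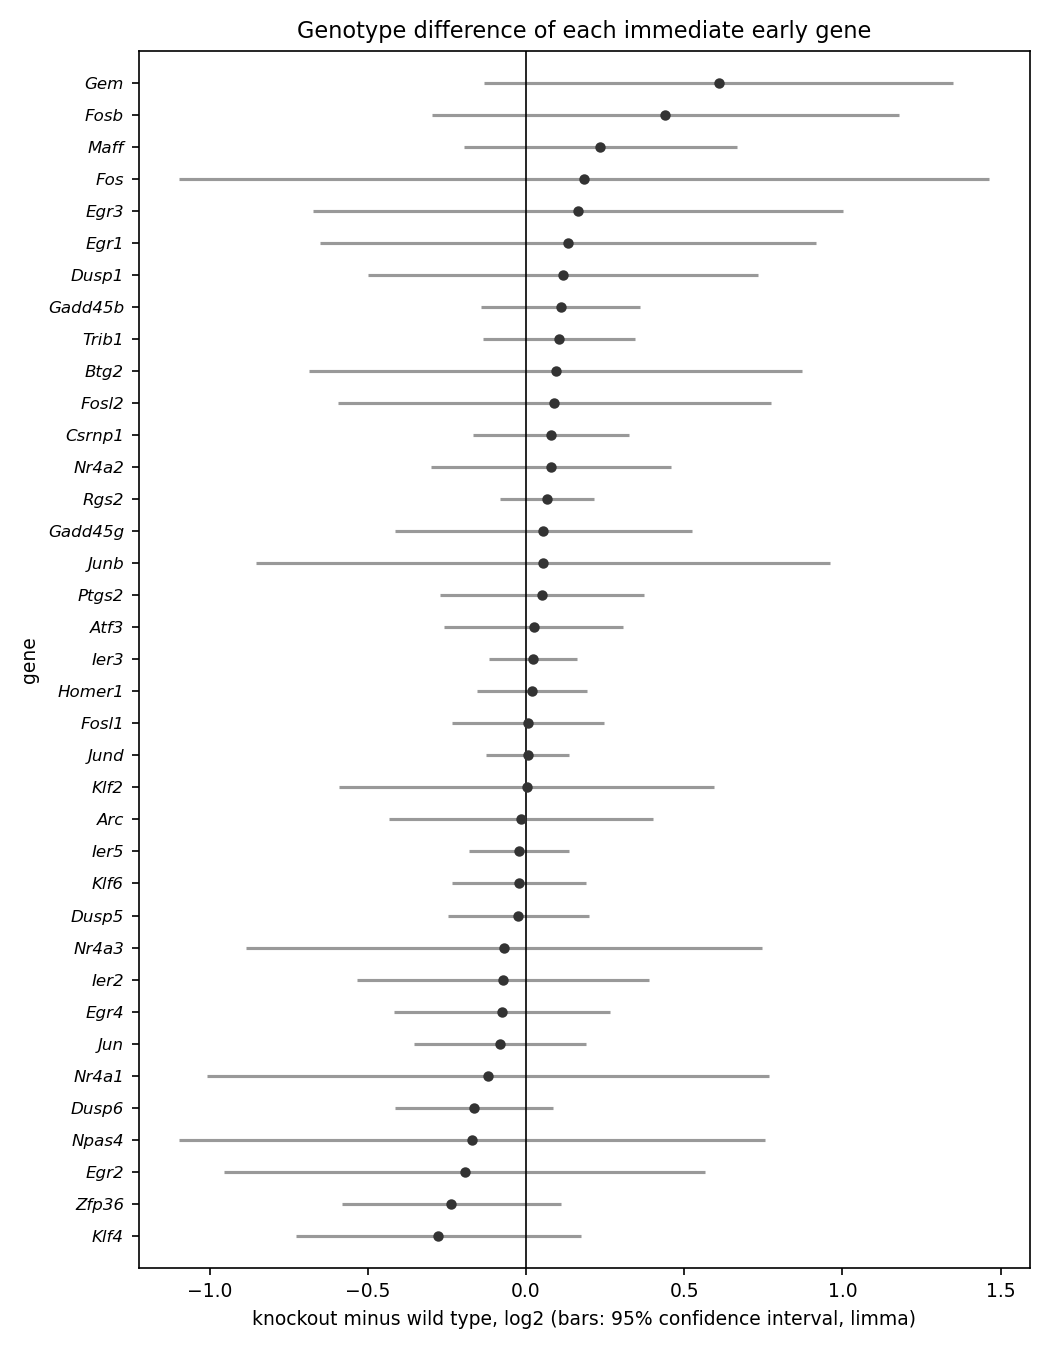
Knockout minus wild-type log2 difference (horizontal axis) of each of the 37 immediate early genes, with 95% confidence intervals from limma over 4 wild-type and 3 knockout arrays. Every interval includes 0, and those of Fos, Npas4 and Junb are the widest.

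The spread between arrays of one genotype set these genes apart from most others as a description. It was measured as the SD of the values about their genotype means. Its median was 0.30 over the members and 0.093 over all genes. Of the 37 members 21 fell in the 5% of genes with the largest such SD and 12 in the top 1%. Set only against the 1000 genes nearest in level, 19 of 37 were in the top 5%. Fos had an SD of 0.98 and stood at percentile 99.8 of all genes. The range over the arrays exceeded 2-fold in 16 of 37 members and in 2.20% of all genes. The dim Egr2 and Gem, with its low wild-type array 2, were among the 16.

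**Figure D3:**
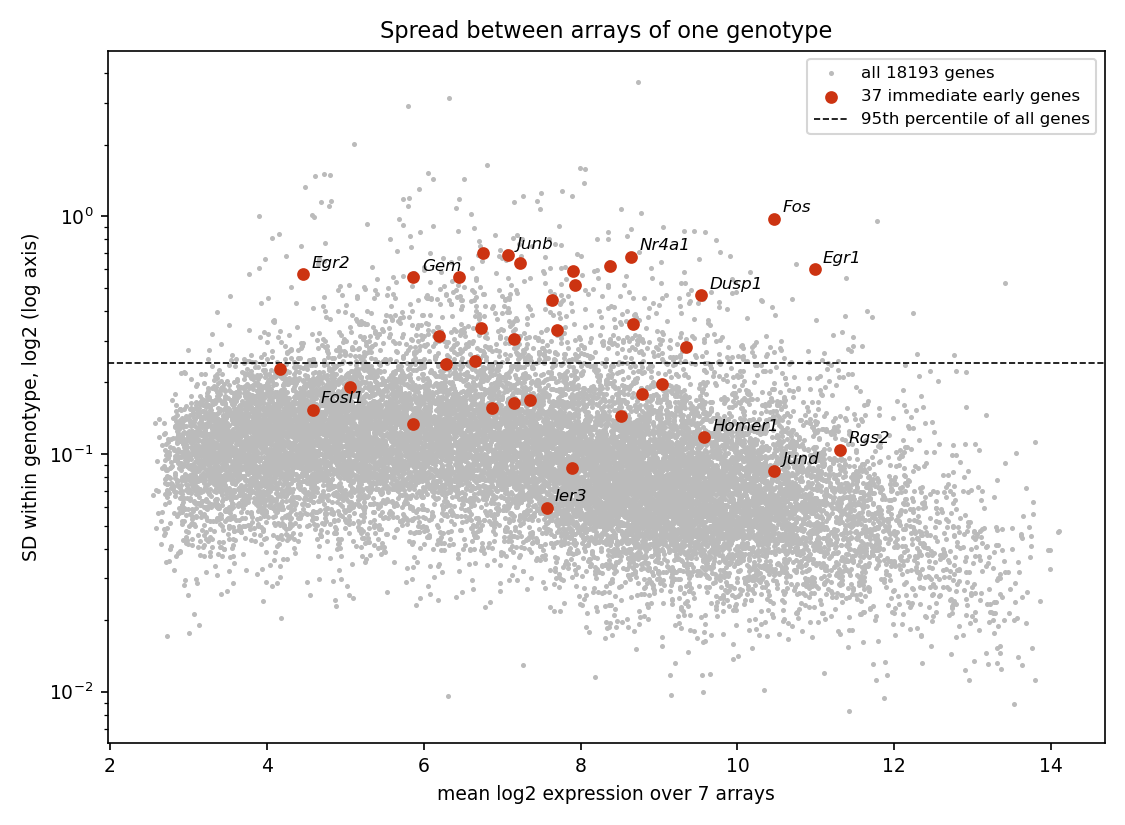
SD within genotype (vertical log axis, in log2 units) against mean log2 level (horizontal axis), with all 18193 genes in the background and the 37 immediate early genes in red, some by name, and a dashed line at the 95th percentile of all genes. The members reach from 0.060 (Ier3) to 0.98 (Fos), and the median over all genes is 0.093.

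By role, the wide spread was found in 3 of 3 NR4A genes, 3 of 4 EGR genes, 3 of 4 genes of mRNA decay and growth, 5 of 9 AP-1 genes, 4 of 7 other nuclear factors, 2 of 5 synaptic effectors (Arc and Gem) and 1 of 5 feedback inhibitors (Dusp1), each count being of genes in the top 5%. Among the 13 genes of the activity core (Fos, Fosb, Junb, Egr1 to Egr4, Arc, Nr4a1, Npas4, Ier2, Dusp1 and Btg2), 12 were in the top 5%, and Egr4 was just short of it at percentile 94.8. The core was listed with earlier results of these data known, so its counts are a description.

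The wide spread had an order. Wild-type array 3 was the highest wild-type array for 24 of 37 members, where it was highest for 26.2% of all genes, and wild-type array 2 was the lowest for 27 of 37, against 29%. Among the knockouts, array 2 was the lowest for 21 of 37 (32.3% of all genes). Within the activity core, a list chosen with earlier results of these data known, the order was tighter still. Wild-type array 3 was highest for 12 of 13, wild-type array 2 lowest for 11, knockout array 1 highest for 10 and knockout array 2 lowest for 12. The median deviation of the core from its genotype mean was 0.65 in wild-type array 3 and 0.59 in knockout array 1. It was -0.49 in wild-type array 2 and -0.44 in knockout array 2, and lay between -0.20 and 0.01 in the other 3 arrays.

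**Figure D4:**
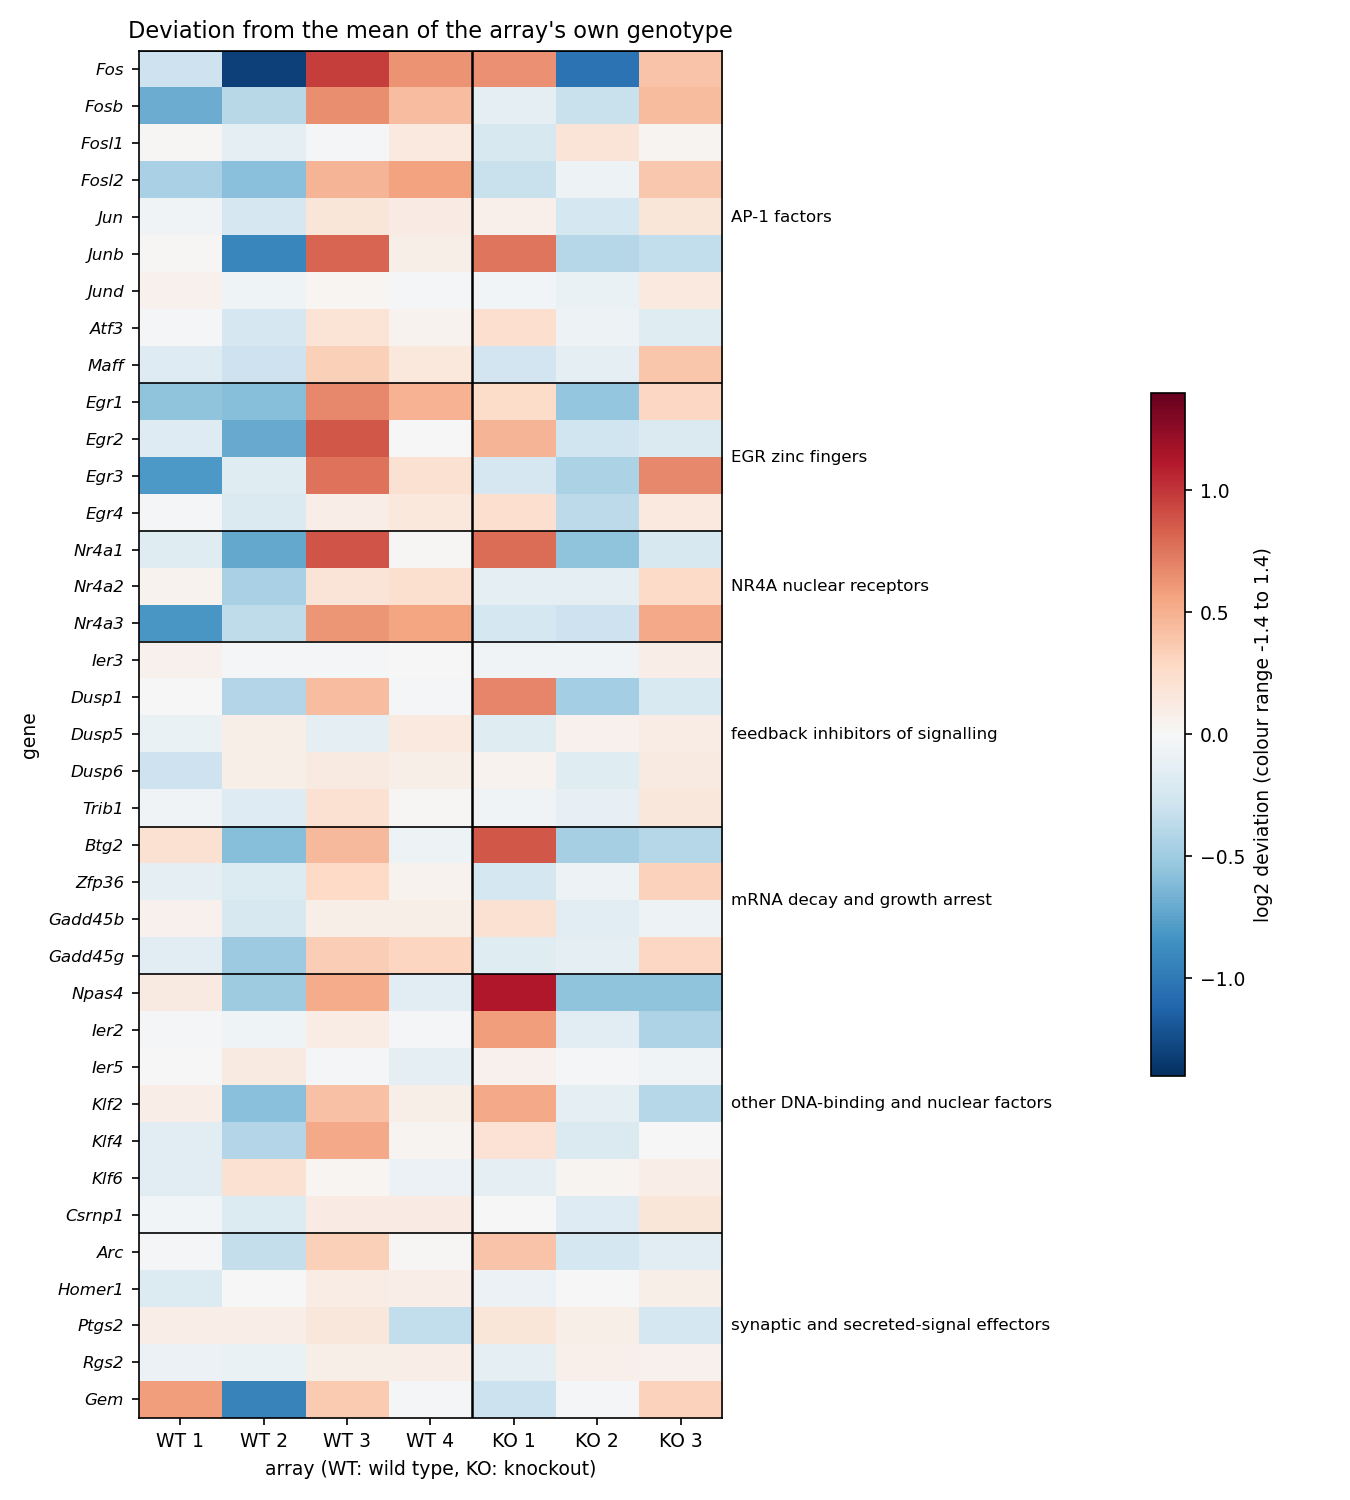
Deviation of each of the 37 immediate early genes (rows) from its own genotype mean on each of the 7 arrays (columns), in log2 units from blue (below) to red (above). Wild-type array 2 and knockout array 2 are mostly blue and wild-type array 3 mostly red, with 5, 5 and 33 of 37 genes above the genotype mean.

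The members were arranged by their highest knockout array, after the values were seen. Array 1 was highest for 16, array 3 for 19 and array 2 for 2, where these arrays were highest for 37%, 31% and 32% of all genes. The set highest in knockout array 1 held 16 genes (Fos, Junb, Egr2, Egr4, Arc, Nr4a1, Npas4, Ier2, Ier5, Dusp1, Btg2, Atf3, Klf2, Klf4, Gadd45b and Ptgs2), and 13 of these were highest in wild-type array 3. The set highest in knockout array 3 held 19 genes (Fosb, Fosl2, Jun, Jund, Egr1, Egr3, Nr4a2, Nr4a3, Ier3, Dusp5, Dusp6, Klf6, Zfp36, Homer1, Gadd45g, Csrnp1, Maff, Trib1 and Gem), of which 11 were highest in wild-type array 3 and 4 in wild-type array 4. Fosl1 and Rgs2 were highest in knockout array 2. The genes of a set do not all move together. In the first set Ier5 and Ptgs2 correlated with Fos by -0.54 and -0.26, and the other genes by 0.33 to 0.90. Fos and Egr1 sat near the border of this division, since both were high in knockout arrays 1 and 3 alike. The families were not kept together by it: Nr4a1 lay in the first set and Nr4a3 in the second, Junb in the first and Fosb in the second.

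The Pearson correlation between the deviations of 2 members, over the 7 arrays after removing genotype means, had a median of 0.38 over 666 pairs, and 18.6% of pairs exceeded 0.8. Over all pairs of the 18193 genes the median was 0.01 and 3.22% exceeded 0.8. In the activity core, chosen with earlier results of these data known, the median was 0.76 over 78 pairs, with 42.3% above 0.8. All pairs share the same 7 arrays, so that they are not independent. The median over the members was 0.25 without wild-type arrays 2 and 3, the lowest and highest of the core, and 0.58 without knockout array 1. For the core it was 0.70 without wild-type arrays 2 and 3.

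**Figure D5:**
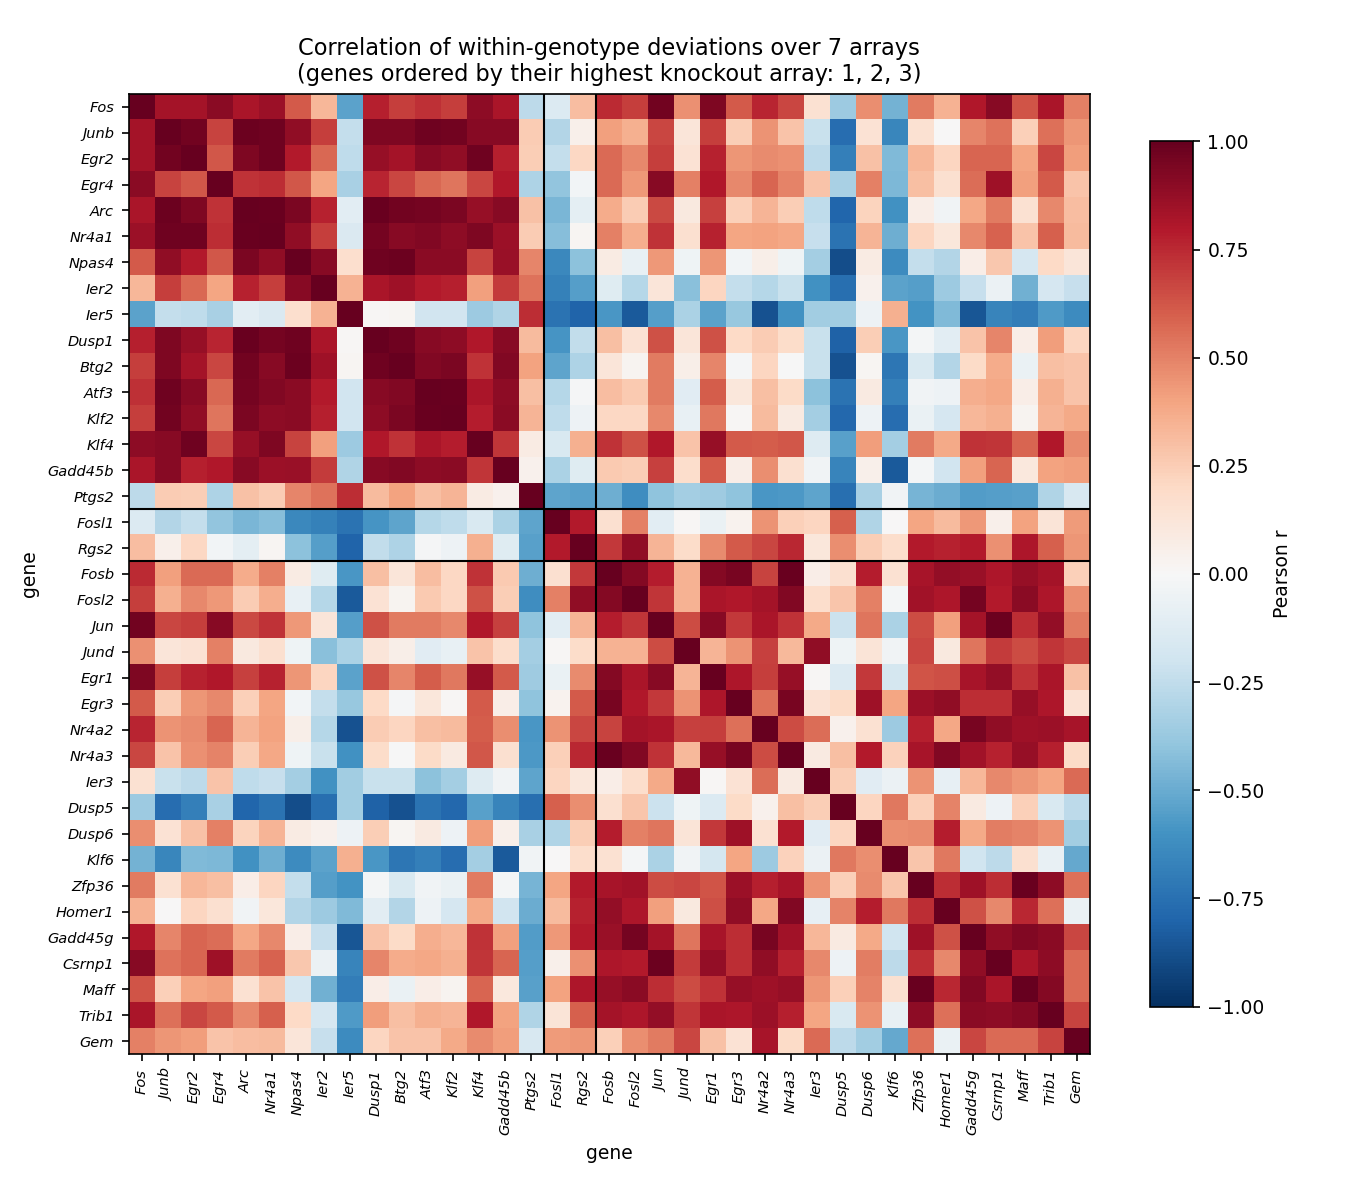
Pearson correlation of within-genotype deviations between each pair of the 37 immediate early genes over 7 arrays, coloured from -1 to 1, with genes ordered by the knockout array in which they were highest. The median over the 666 pairs is 0.38, and because the order was taken from the same values the blocks are a description.

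Other measures moved with this order in part. Meningeal and fibroblast markers (12 of 12 measured), which mark tissue at the brain surface, had their highest summed level in wild-type array 3 (4430 on the linear scale), followed by 2552 in wild-type array 2, where the activity core was lowest, while wild-type arrays 1 and 4 gave 1670 and 1676. In the knockout their sum was highest in array 2 (2290), where the core was lowest, and lowest in array 1 (1430), where it was highest. Single markers did not all follow the sum. Igfbp2, Aldh1a2, Bmp6 and Slc22a6 were highest in knockout array 1 and Crabp2 in knockout array 3, and the others in knockout array 2. Thalamus and habenula markers (12 of 12 measured) summed to 20700 in wild-type array 2, where the core was lowest, while the remaining wild-type sums were 14600 to 17570, and in the knockout they were 14600 to 16700. Hypothalamus markers (14 of 15 measured) summed to 32100 in wild-type array 2 and to 36600 to 43000 in the other 6 arrays. Oligodendrocyte markers (7 of 8 measured) summed to 37010, 40210, 44970 and 44960 in wild type and to 35970, 42390 and 41190 in the knockout, lowest in array 1 of both genotypes. Blood cell markers (8 of 9 measured) summed to 800 in knockout array 2 and to 191 to 239 in the other arrays. The part of these tissue markers in the order of the immediate early genes was not tested. In wild type the lowest and the highest array of the core, 2 and 3, were both male. In the knockout the only female array, 1, was the highest for 10 of 13 core genes, so that sex and array cannot be told apart there.

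Glucocorticoids rise with stress and time of day and switch on their own set of target genes. Of 12 such genes, all measured, 9 were higher in the knockout and 3 lower, none past the threshold, with a median difference of 0.10. Fkbp5, a co-chaperone of the glucocorticoid receptor, read 8.45, 8.94, 9.11 and 9.25 in wild type and 8.505, 9.20 and 9.51 in the knockout. Sgk1, a kinase of ion transport, read 10.57, 11.01, 11.69 and 11.82 in wild type and 11.05, 11.51 and 12.03 in the knockout. Both thus had the same order of arrays within each genotype as the most variable Homer1 probe set, with array 1 lowest in both and wild-type array 4 and knockout array 3 highest. Both were chosen after their values were seen. Of the 12, Tsc22d3, Pdk4, Cdkn1a and Mt1 also had this order, while Zbtb16, Mt2, Per1, Errfi1, Ddit4 and Sult1a1 did not. The order differs from that of Junb, Npas4 and Btg2, which were highest in knockout array 1. The part of this order in the second set of genes was not tested.

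Genes that induce or restrain immediate early genes were taken from a list of 41. It held SRF and its partners, MEF2 factors, CREB and its coactivators, calcium-activated and MAP kinases, and calcium and NMDA channels. It also held Nab1 and Nab2, which encode corepressors of EGR factors. Of the 41, 33 were measured and the others are not analysed here. Of the 33, 8 were higher and 25 lower in the knockout, with a median difference of -0.083, and 0 passed the threshold. Nab1 and Nab2 were among the 8 higher, by 0.034 and 0.14. At an unadjusted p under 0.05 there were 7 of 33, all lower, beside 11.7% of all genes. In 6 of 33, the higher Nab2 among them, the groups did not overlap, beside 12.1%. Neuron markers stood beside this with 7 of 10 lower, a median of -0.046, 3 of 10 at an unadjusted p under 0.05, all lower, and 4 of 10 with groups that did not overlap. Their part in the upstream list was not tested.

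Mef2d, a factor released from repression by calcineurin, read 10.29, 10.38, 10.34 and 10.29 in wild type and 10.14, 10.15 and 10.21 in the knockout. The groups did not overlap, and the difference was -0.16 ± 0.039 (SE; limma, adjusted p = 0.267). Cacna1c, the pore of the L-type calcium channel CaV1.2, read 7.87, 8.38, 7.93 and 8.16 in wild type and 7.66, 7.59 and 7.73 in the knockout. These groups also did not overlap, and the difference was -0.43 ± 0.12 (SE; limma, adjusted p = 0.273). Mrtfb, an SRF coactivator, differed by -0.10 ± 0.030 (SE; limma, adjusted p = 0.296), and Camkk2, a kinase upstream of CaMKIV, by -0.19 ± 0.072 (SE; limma, adjusted p = 0.381). With the mean of all its probe sets in place of the brightest, Mrtfb turned to 0.0019.

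The genes listed as late-response rise with or after the first wave and encode, among others, secreted factors, kinases and clock proteins. Of 32 listed, 30 were measured, 19 of them higher and 11 lower in the knockout, with a median difference of 0.04 and 0 past the threshold. An unadjusted p under 0.05 was found for 1 of 30, beside 11.7% of all genes. This was Adcyap1, which encodes the neuropeptide PACAP, at 10.30, 9.76, 10.004 and 10.09 in wild type and 10.38, 10.34 and 10.24 in the knockout. Wild-type array 1 lay inside the knockout range, and the difference was 0.28 ± 0.11 (SE; limma, adjusted p = 0.377). Gpr3, a receptor that raises cyclic AMP without a ligand, differed by 0.25 ± 0.12 (SE; limma, adjusted p = 0.439). Nfil3, a repressor of clock output genes, differed by 0.26 ± 0.13 (SE; limma, adjusted p = 0.458), and Inhba, an activin subunit, by 0.22 ± 0.12 (SE; limma, adjusted p = 0.488).

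Genes outside the lists were ranked by the correlation of their deviations with the mean deviation of the activity core, among 8750 genes above the median level. The 8 closest were Slc12a9, Prpf31, Slf2, Phf13, Pigo, Mycbp, Tmem42 and Sec22c, with Pearson correlations from 0.993 down to 0.984 over 7 arrays, and 23 genes exceeded 0.95. These 8 were taken as the highest of 8750 over only 7 arrays. How many genes would reach such correlations by chance was not tested. The movements of the 8 were small, with SDs within genotype from 0.039 (Slf2) to 0.12 (Tmem42), and 0.052 for Slc12a9. Prpf31, a splicing factor, had groups that did not overlap, as did 12.1% of all genes. Its wild-type mean was 8.71 ± 0.060 (SD, n = 4) and its knockout mean 8.97 ± 0.067 (SD, n = 3). Its difference of 0.27 did not pass the threshold (limma, adjusted p = 0.207).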

How the data were processed

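Per the labels' protocols, RNA of dissected hypothalami was prepared with Trizol and miRNeasy columns and biotin-labelled. The authors deposited log2 expression values of 45101 probe sets. The submitters' processing notes name RMA, affy and R 2.10.0 without settings. RMA usually equalises intensity distributions between arrays and gives no detection call, so low values cannot be told from background. The 64 control probe sets were dropped. Of the rest, 34945 carried 1 gene symbol in the platform annotation, 932 several and 9160 none. The brightest of a gene's probe sets with 1 symbol stood for it, which gave 18193 genes.

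Genotypes were compared with limma 3.58.1 in R 4.3.3 (two-sided, lmFit and eBayes with a trend), p-values being adjusted by Benjamini-Hochberg over all genes, and a threshold of 0.05. The fit was tested on simulated data. The members and gene lists were chosen with earlier results of these data known. Full values are given for the 13 genes of the activity core and the 8 members with the smallest unadjusted p, and up to 4 genes by p from each pathway list. Fosl2, Nr4a3 and a Homer1 probe set were added after their values were seen. Deviations from the genotype mean correlated by 0.32, 0.10 and 0.14 between same-numbered arrays of both genotypes, all over 0.1. The number was therefore treated as a pairing in an alternative fit. Some differently numbered arrays were as close: wild-type array 2 with knockout array 3 gave 0.13, and wild-type array 4 with knockout array 3 gave 0.10. The remaining pairs ran from -0.32 to 0.012. Same-numbered arrays were also of one sex, so a pairing is not established. The labels do not say what the numbers share. Alternatives changed the probe set, the dim-gene filter, the variance model, array weights, normalization, sex, the replicate block and the arrays kept. Promoters came from RefSeq (GRCm38.p6); 26 of the 30 members matched had a single entry. Figures used Python 3.11.15 and matplotlib 3.10.9. The number of arrays limits the precision.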

Additional observations from a re-analysis of the deposited data

Results flagged for a closer look

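Among the 37 members, each with 4 wild-type values, 3 had a wild-type array far from the others, past the critical gap at the 95% level; chance gives this in about 1 in 20 groups. Dusp6 in wild-type array 1 was 8.564, with a gap of 0.895 of the range. Gadd45b in wild-type array 2 was 7.077, with a gap of 0.928. Ptgs2 in wild-type array 4 was 3.797, with a gap of 0.87. Gem in wild-type array 2, the lowest value behind the largest difference, did not reach this distance.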

How the results depend on the processing

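The count of members past the threshold was 0 under every alternative tried, with a lowest adjusted p of 0.227 over 574 member values (limma). Over all genes the count was 2, and averaging the probe sets of a gene gave 1, array weights gave 7, testing every probe set gave 3, and leaving out each array gave 2 to 21. With the replicate block, which drops wild-type array 4, 3 of 37 members (Fosb, Zfp36 and Maff) had an unadjusted p under 0.05, beside 11.4% of all genes, the count of all genes past the threshold was 2, and no call changed. The median difference of 0.02 ran from -0.064 to 0.11 with each array left out. The median correlation of 0.38 was 0.25 without wild-type arrays 2 and 3 and ran from 0.27 to 0.58 with each array left out. It was not computed under the block, which leaves too few degrees of freedom.

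Only 9 members kept their sign throughout: Fosb, Dusp6, Klf4, Zfp36, Gadd45b, Maff, Trib1, Rgs2 and Gem. The log2 differences of the other 28 changed sign when an array was left out. The ranges were Fos -0.25 to 0.70, Fosl1 -0.086 to 0.12, Fosl2 -0.11 to 0.28, Jun -0.17 to 0.041, Junb -0.32 to 0.33, Jund -0.062 to 0.05043, Egr1 -0.064 to 0.40, Egr2 -0.43 to 0.096, Egr3 -0.17 to 0.42, Egr4 -0.19 to 0.11, Arc -0.22 to 0.11, Nr4a1 -0.51 to 0.17, Nr4a2 -0.073 to 0.15, Nr4a3 -0.34 to 0.14, Npas4 -0.73 to 0.11, Ier2 -0.37 to 0.14, Ier3 -0.024 to 0.045, Ier5 -0.062 to 0.021, Dusp1 -0.225 to 0.35, Dusp5 -0.077 to 0.058, Btg2 -0.34 to 0.33, Atf3 -0.095 to 0.11, Klf2 -0.26 to 0.20, Klf6 -0.074 to 0.047, Homer1 -0.045 to 0.061, Gadd45g -0.11 to 0.17, Ptgs2 -0.065 to 0.18 and Csrnp1 -0.0089 to 0.17. Sign changes elsewhere were as follows. With array weights Fos was -0.030, Fosl1 -0.0017, Fosl2 -0.030, Junb -0.015, Egr1 -0.018, Klf2 -0.034, Homer1 -0.0027 and Gadd45g -0.016. With quantile normalization Fosl1 was -0.020, Arc 0.0010 and Klf6 0.0019, and with sex as a covariate Fosl1 was -0.0022 and Arc 0.024. With the replicate block Jund was -0.0048, Nr4a3 0.11, Dusp5 0.020 and Ptgs2 -0.065. With the mean of all probe sets Klf6 was 0.0098, Ptgs2 -0.0071, Creb1 0.047 and Mrtfb 0.0019. Without wild-type arrays 2 and 3 Fosl1 was -0.068, Jund -0.0090, Nr4a2 -0.058, Nr4a3 0.061, Ier3 -0.0065, Ier5 0.036, Klf2 -0.085, Klf6 0.098 and Gadd45g -0.024. The cause of these changes was not tested.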
